A study of Mus musculus with 12 samples.

Results

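A group of 10 genes of the endoplasmic reticulum (ER) stress response and the integrated stress response were followed in T cells sorted from mouse tumours. They were taken by name, as Dnajb9, Hspa5, Xbp1, Sdf2l1, Herpud1, Atf4, Ddit3, Ppp1r15a, Trib3 and Asns, and are 10 of the 32285 gene symbols counted. Single-cell 5' libraries were made from 6 C57Bl/6 mice carrying subcutaneous MCA205 fibrosarcoma tumours, 1 library per mouse. In the anti-ACBP group, 3 mice were given an antibody that neutralises acyl-CoA binding protein (ACBP, the product of Dbi), and in the isotype group 3 mice were given IgG2a. Either antibody was given at 2.5 mg/kg every 2 days, starting 2 days ahead of chemotherapy and ending 1 day ahead of immunotherapy. All 6 mice, the controls included, received 300000 tumour cells, 10 mg/kg oxaliplatin 8 days later and 200 µg anti-PD1 after a further 8 days, and tumours were taken 2 days after that. No untreated mouse and no chemotherapy-free mouse is among these groups. CD4+ and CD8+ cells were mixed at equal numbers after sorting, so the ratio of the lineages was set by the experiment.

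The ER folds secreted and membrane proteins, and when unfolded proteins accumulate in it 3 membrane sensors, IRE1, ATF6 and PERK, raise chaperones and degradation factors through transcription factors such as XBP1. PERK is also 1 of several kinases that phosphorylate the translation factor eIF2alpha, which lowers general translation while allowing translation of ATF4, a transcription factor that turns on CHOP and amino acid genes. Activated T cells engage both programmes, and ER stress in T cells of tumours has been studied for its link with reduced effector function. Much of this control acts on splicing of Xbp1, on cleavage of ATF6 and on translation of Atf4, none of which a count of 5' transcript ends reads.

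Promoter sequence is shown for 3 of the genes: Dnajb9 because its RNA was higher with anti-ACBP, Ppp1r15a because its change differed between T cell classes, and Hspa5 because it is the classical target of the ER stress pathway, against which the others can be read. The 250 bases before the annotated start were taken from RefSeq (GRCm38.p6) and are written 5' to 3' on the gene's strand, with capitals marking the motif matches found, of which Dnajb9 had none. The windows lie at chr12:44210069-44210318 (minus strand) for Dnajb9, chr2:34771840-34772089 (plus strand) for Hspa5 and chr7:45526269-45526518 (minus strand) for Ppp1r15a.
Dnajb9: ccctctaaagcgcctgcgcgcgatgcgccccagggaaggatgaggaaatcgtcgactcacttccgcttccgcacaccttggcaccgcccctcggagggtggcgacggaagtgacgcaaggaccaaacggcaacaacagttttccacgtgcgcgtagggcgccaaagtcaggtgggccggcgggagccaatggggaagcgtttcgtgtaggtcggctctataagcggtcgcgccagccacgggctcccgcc
Hspa5: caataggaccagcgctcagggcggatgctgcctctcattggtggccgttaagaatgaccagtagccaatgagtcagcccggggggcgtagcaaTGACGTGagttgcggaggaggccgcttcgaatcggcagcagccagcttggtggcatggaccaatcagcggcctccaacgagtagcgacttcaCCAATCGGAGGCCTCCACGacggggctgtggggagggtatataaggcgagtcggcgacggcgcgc
Ppp1r15a: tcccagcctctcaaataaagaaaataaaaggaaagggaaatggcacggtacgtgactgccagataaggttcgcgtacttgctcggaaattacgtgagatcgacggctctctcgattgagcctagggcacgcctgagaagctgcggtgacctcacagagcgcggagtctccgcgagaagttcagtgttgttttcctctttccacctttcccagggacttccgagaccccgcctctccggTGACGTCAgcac
In these windows of the 10 genes, 4 motifs were searched on both strands. The ER stress element was searched only as CCAAT followed by any 9 bases and CCACG. In this form it was found before Hspa5, at position -65 from the start, and before none of the other 9 genes. This form occurs in 0.113% of all 32851 RefSeq promoters of the same length. Other spacings or orders of these letters were not searched, so the other 9 genes may hold such an element in another form. The core of the unfolded protein response element, TGACGTG, was also found before Hspa5, at position -157, and occurs in 1.65% of promoters. The cyclic AMP response element TGACGTCA was found before Ppp1r15a at position -12 and occurs in 1.55%. The C/EBP-ATF composite site, TGATGNAA, was found before Asns at -23 and before Herpud1, on the opposite strand, at -112, and occurs in 3.45%. None of these letters was found in the windows of Dnajb9, Xbp1, Sdf2l1, Atf4, Ddit3 and Trib3, and the matches describe sequence only.

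The authors kept 30749 cells in 9 numbered clusters, from 2923 to 6350 cells per anti-ACBP library and from 4706 to 7238 per isotype library. The anti-ACBP libraries held 28037851 to 53150273 UMIs (unique molecules counted), with medians of 6603 to 7682 per cell. The isotype libraries held 27791735 to 65519423 UMIs, with medians of 4516 to 7148 per cell. By marker genes, clusters 0, 3 and 6 were CD8 T cells, 1 and 7 conventional CD4 T cells and 2 regulatory T cells, with a Foxp3 UMI in 81.0% of cluster 2 cells. Cluster 4 was cycling, with an Mki67 UMI in 97.6% of cells, cluster 5 held both lineages, and cluster 8 held both lineages at a mean of 2794 CPM of the heat shock gene Hspa1a. With the cells of clusters 4, 5 and 8 placed by their own Cd4, Cd8a, Cd8b1 and Foxp3 UMIs, there were 16888 CD8, 8902 conventional CD4 and 4706 regulatory T cells. Of 30207 distinct cell barcodes, 536 occurred in more than 1 library. Levels below are in CPM, a gene's UMIs scaled by all UMIs of that mouse's class or cluster, and each mouse is 1 replicate.

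The genes differed in where they were expressed. Ppp1r15a, the subunit that brings protein phosphatase 1 to eIF2alpha and so ends the translation block, varied 4.02-fold between cluster means. It averaged 139.5 ± 26.5 CPM in the regulatory cluster 2 and 34.7 ± 8.44 CPM in CD8 cluster 3 (SD, n = 6 mice), and these were the highest and the lowest of the 8 clusters with all mice in 6 of 6 mice. Its next levels were 104 ± 17.1 CPM in cluster 1 and 92.4 ± 20.8 CPM in cluster 5, which lay within each other's spread. Cluster 8, in which the 4 libraries with at least 20 cells were used, averaged 144 ± 47.1 CPM, within the spread of cluster 2. Trib3, a pseudokinase induced by CHOP and ATF4, was also highest in cluster 2, at 3.66 ± 1.04 CPM against 1.97 ± 0.824 CPM in the next cluster, but rests on 132 UMIs there. Ddit3, which encodes CHOP, ran from 12.97 ± 3.71 CPM in cluster 7, the lowest of 8 in 6 of 6 mice, to 32.4 ± 7.70 CPM in cluster 2. These levels carry no test, since the clusters were made from the same cells.

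Sdf2l1, a partner of the ER chaperone BiP and its DnaJ cofactors, had the opposite pattern to its neighbours in the pathway. Its level was 104.7 ± 5.15 CPM in the cycling cluster 4, highest of 8 in 6 of 6 mice, and 39.2 ± 3.20 CPM in conventional CD4 cluster 1, lowest in 6 of 6. Hspa5, which encodes BiP, and Xbp1 were lowest in that same cycling cluster, at 391 ± 30.4 CPM and 71.2 ± 4.39 CPM, and highest at 619 ± 49.8 CPM in cluster 5 and 138.5 ± 14.9 CPM in cluster 2. Dnajb9, a DnaJ cofactor of BiP that is a target of spliced XBP1, was also lowest there, at 17.7 ± 4.81 CPM, and no 2 neighbouring clusters in its order differed by more than their spreads. Herpud1, a membrane protein of ER-associated degradation, ran from 34.4 ± 6.49 CPM in cluster 3 to 67.4 ± 12.1 CPM in cluster 2. Atf4 was nearly flat, between 85.9 ± 17.0 CPM in cluster 3 and 116 ± 29.5 CPM in cluster 5, with 133 ± 43.9 CPM in cluster 8. Asns, the asparagine synthetase, was highest in the cycling cluster, at 16.2 ± 9.75 CPM, where isotype mouse 2 alone had 35.5 CPM.

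**Figure D1:**
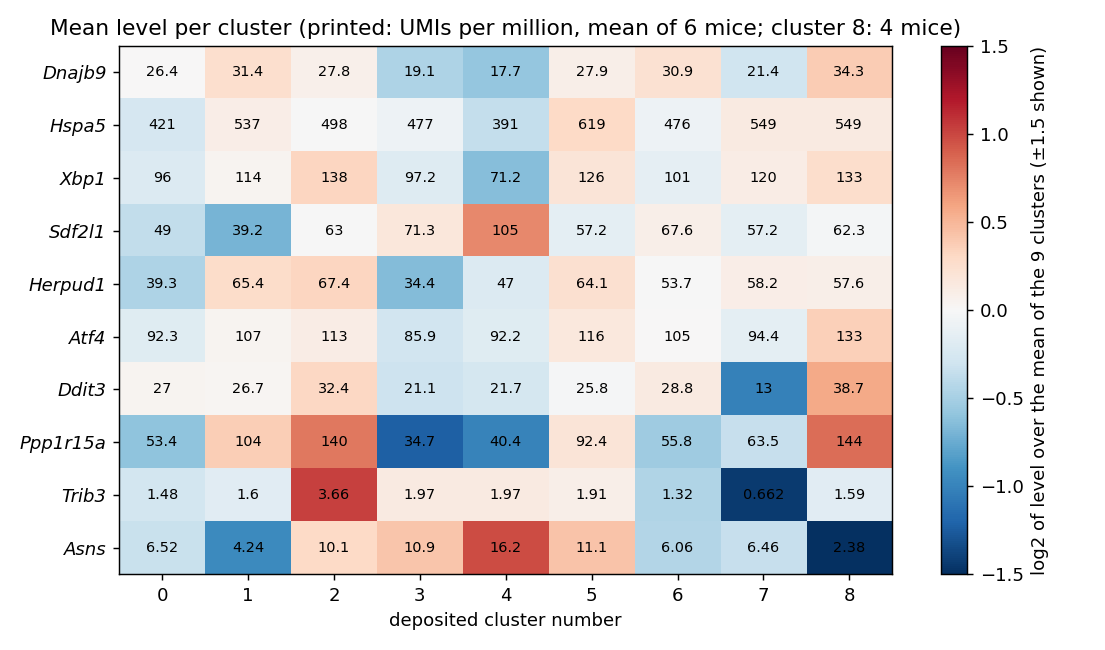
Mean level of the 10 genes (rows) in the 9 deposited clusters (columns). Printed numbers are CPM averaged over 6 mice, 4 mice for cluster 8, and colour is the log2 of that level over the gene's mean across the clusters. Sdf2l1 peaks in the cycling cluster 4 at 104.7 CPM, where Hspa5, Xbp1 and Dnajb9 are at their lowest, and Ppp1r15a peaks in clusters 8 and 2.

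The same contrast was seen in part by cell cycle phase, as the authors' phase column gives it, inside each class. Sdf2l1 in CD8 T cells averaged 47.4 ± 3.18 CPM in G1, 97.1 ± 5.84 CPM in S and 85.0 ± 6.55 CPM in G2M cells (SD, n = 6 mice). Regulatory T cells averaged 41.3 ± 4.06, 106.8 ± 16.5 and 83.4 ± 9.04 CPM in G1, S and G2M. S and G2M cells exceeded G1 cells in 6 of 6 mice in all 3 classes. Asns was likewise higher in S than in G1 cells in 6 of 6 mice of each class, by 2.20-fold in CD8, 2.42-fold in conventional CD4 and 2.86-fold in regulatory T cells. Xbp1 and Dnajb9 went the other way, and Dnajb9 in G2M cells was below G1 cells in 6 of 6 mice of each class, at 0.663 times the G1 level in CD8, 0.738 times in conventional CD4 and 0.568 times in regulatory T cells. In S cells Dnajb9 was at 0.992, 0.938 and 0.755 times its G1 level in the same order. Hspa5 followed less, at 1.00, 0.924 and 1.01 times its G1 level in S cells. In G2M cells Hspa5 was at 0.916, 0.917 and 0.956 times. Ppp1r15a in regulatory T cells averaged 159 ± 23.2 CPM in G1, 96.7 ± 19.6 CPM in S and 112.5 ± 15.2 CPM in G2M. These phase levels are descriptions with no test.

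The share of cells in G1 did not overlap between the groups in CD8 and regulatory T cells and overlapped in conventional CD4 T cells, and its part in the results was not tested beyond the values in G1 cells alone. In CD8 T cells 72.2 to 72.7% of cells were in G1 in anti-ACBP mice, against 56.2 to 69.9% in isotype mice. Among regulatory T cells the range was 77.7 to 85.0% in anti-ACBP mice and 64.5 to 69.9% in isotype mice, while in conventional CD4 T cells it was 78.5 to 83.7% and 77.6 to 78.6%. Values in G1 cells alone are given where they alter a result.

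Of the 10 genes, Dnajb9 was the 1 that passed the edgeR test of anti-ACBP against isotype mice (adjusted p under 0.05) within a class. All 10 were tested in each class. Among regulatory T cells 1 rose and 0 fell, where 2.04% of all tested genes rose and 1.3% fell. Conventional CD4 T cells also had 1 rise and 0 fall, where 0.247% of tested genes rose and 0.0823% fell. CD8 T cells had 0 of each, where 0.564% rose and 0.453% fell, and DESeq2 called 1. At an unadjusted edgeR p under 0.05 stood 5 of 10 in regulatory T cells (Dnajb9, Xbp1, Sdf2l1, Ddit3 and Ppp1r15a), against 21.1% of all tested genes. The same held for 4 of 10 in conventional CD4 T cells (Dnajb9, Hspa5, Sdf2l1 and Herpud1), against 15.2%, and for 3 of 10 in CD8 T cells (Dnajb9, Herpud1 and Ppp1r15a), against 17.8%. The anti-ACBP and isotype mice did not overlap for 5 of 10 genes in regulatory T cells, against 26.8% of all tested genes, for 4 of 10 in conventional CD4 T cells, against 21.0%, and for 3 of 10 in CD8 T cells, against 24.4%. The median log2 fold change of the 10 was 0.25 in regulatory, 0.24 in conventional CD4 and -0.10 in CD8 T cells, against -0.01, -0.01 and 0.00 over all tested genes.

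Dnajb9, annotated at chr12:44205897-44210068 on GRCm38.p6, had a positive change in each class. In conventional CD4 T cells it measured 35.9, 35.9 and 39.9 CPM in anti-ACBP mice 1, 2 and 3, against 23.0, 17.1 and 19.95 CPM in isotype mice 1, 2 and 3. Regulatory T cells had 32.9, 34.8 and 35.8 CPM in anti-ACBP mice and 20.6, 18.4 and 22.3 CPM in isotype mice, and CD8 T cells had 28.4, 31.0 and 29.1 CPM in anti-ACBP mice and 21.3, 14.5 and 18.2 CPM in isotype mice. Every anti-ACBP mouse lay above every isotype mouse in all 3 classes, and isotype mouse 2 was the lowest in each. The log2 fold change was 0.90 ± 0.13 in conventional CD4 (SE, edgeR quasi-likelihood adjusted p = 0.0317) and 0.73 ± 0.12 in regulatory T cells (edgeR adjusted p = 0.0165). In CD8 T cells it was 0.68 ± 0.14 and did not pass (edgeR adjusted p = 0.0585), though DESeq2 called it (adjusted p = 0.00182). The change in 1 class minus that in another did not pass for any pair of classes, the largest being 0.22 ± 0.11 for conventional CD4 minus CD8 (edgeR adjusted p = 0.721).

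Over all T cells together Dnajb9 measured 30.3, 32.8 and 32.5 CPM in anti-ACBP mice and 21.5, 16.1 and 19.1 CPM in isotype mice, a change of 0.75 ± 0.11 (edgeR adjusted p = 0.0261). It was the 1 of 10 called there, where 1.54% of tested genes rose, and that call was lost without any 1 anti-ACBP mouse or isotype mouse 3. This sum mixes the classes. Regulatory T cells were 716 of 6350, 478 of 2923 and 334 of 4171 cells in anti-ACBP mice 1, 2 and 3. In isotype mice 1, 2 and 3 they were 1396 of 7238, 879 of 5361 and 903 of 4706 cells. The part of this mix in the values over all T cells was not tested.

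The calls for Dnajb9 rest on few mice. In conventional CD4 T cells leaving out anti-ACBP mouse 1, 2 or 3 or isotype mouse 3 ended the call at adjusted p of 0.0732 to 0.143, with log2 fold changes of 0.86 to 0.93, and so did keeping only cells whose own Cd4 and Cd8 UMIs match the class (0.79, adjusted p = 0.0592). In regulatory T cells the call ended without anti-ACBP mouse 2 (adjusted p = 0.0673) or 3 (adjusted p = 0.0586) and in G1 cells alone (0.51 ± 0.14, adjusted p = 0.0751), while leaving out isotype mouse 1 made it a call in CD8 T cells (0.83, adjusted p = 0.00992). Cells with more Cd8 than Cd4 UMIs made up 14.2 to 20.7% of the conventional CD4 class in anti-ACBP mice and 4.69 to 17.8% in isotype mice. In the regulatory class the summed Cd8a and Cd8b1 level was 67.7 to 115 CPM in anti-ACBP mice, above the 25.8 to 52.0 CPM of isotype mice, and with only lineage-matching cells the Dnajb9 change there was 0.75 (adjusted p = 0.0255).

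**Figure D2:**
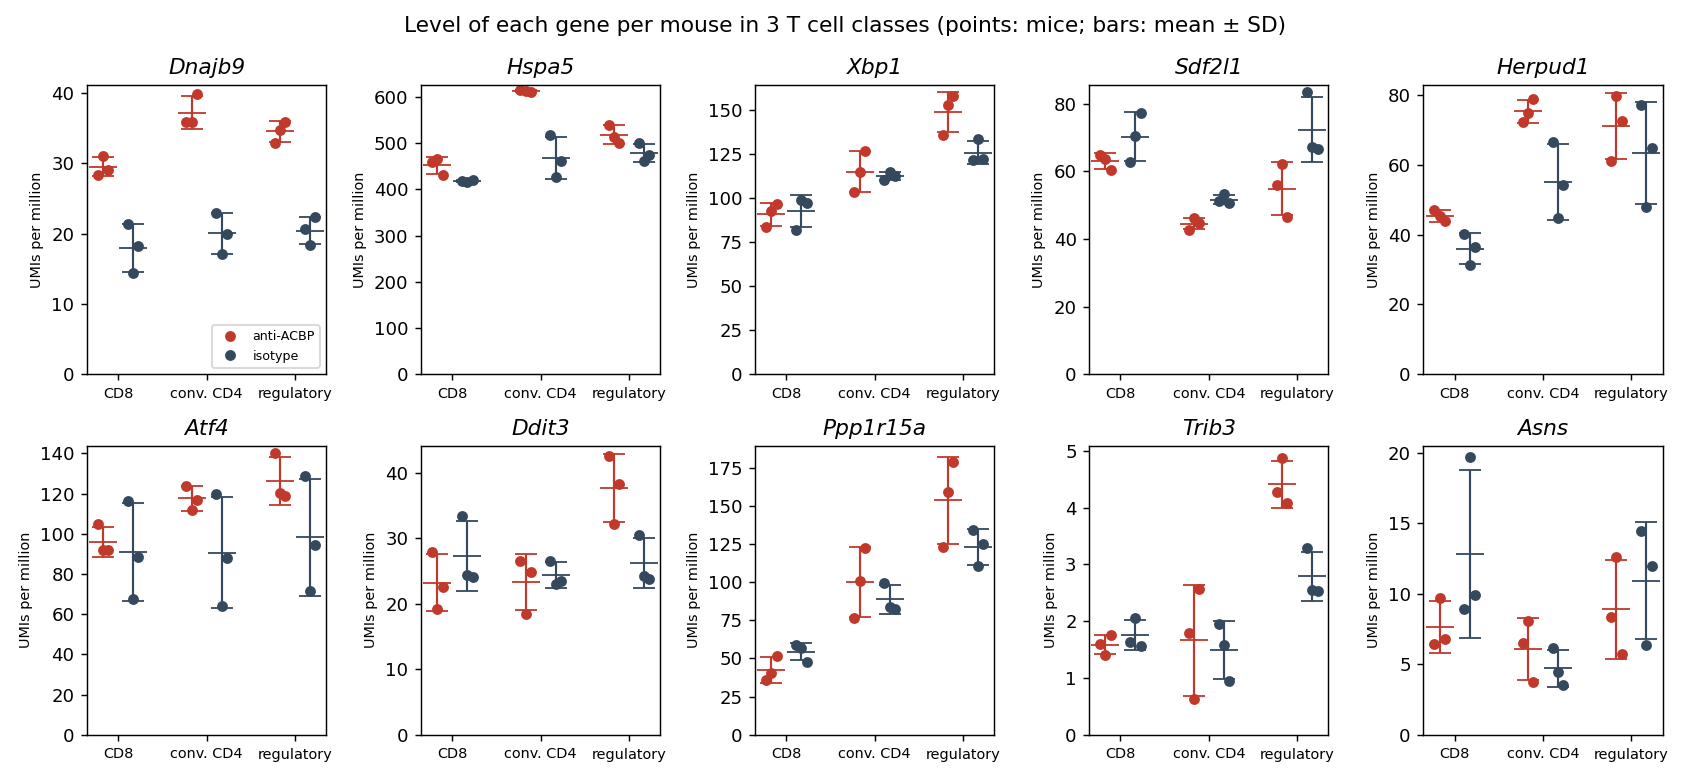
CPM of each gene in CD8, conventional CD4 and regulatory T cells, 1 panel per gene. Points are mice, anti-ACBP (red) left of isotype (dark blue), with the mean and SD of 3 mice as bars. The Dnajb9 groups stand apart in all 3 classes, at 28.4 CPM or more in anti-ACBP mice and 23.0 CPM or less in isotype mice.

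The share of cells with a Dnajb9 UMI was also higher in every anti-ACBP mouse than in every isotype mouse of each class. After each cell was thinned to 2000 UMIs, a Dnajb9 UMI was found in 8.64, 8.29 and 8.68% of conventional CD4 T cells in anti-ACBP mice, against 4.63, 4.03 and 4.99% in isotype mice. The means were 7.83 ± 0.599% and 4.39 ± 0.380% in regulatory T cells and 6.55 ± 0.612% and 3.78 ± 0.802% in CD8 T cells of anti-ACBP and isotype mice (SD, n = 3 each). Cells with the transcript carried between 1.00 and 1.12 UMIs of it on average in every mouse and class, which at this depth is close to the smallest possible value. Each of these shares gave an exact two-sided permutation p of 0.1, the smallest that 3 against 3 mice allows, and an adjusted p of 0.273 over the 30 shares compared. Unthinned, Dnajb9 UMIs were found in 21.4 ± 1.08% of conventional CD4 cells of anti-ACBP mice and 10.5 ± 4.55% of those of isotype mice, at median depths of 5661 to 7039 and 3574 to 6301 UMIs. Of the 30 shares, 11 did not overlap between the groups. By class these were 5 of 10 genes in CD8 T cells, against 19.7% of all genes tested there, 2 of 10 in conventional CD4 T cells, against 17.2%, and 4 of 10 in the regulatory class, against 19.5%.

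Dnajb9 had a positive change with anti-ACBP in 9 of 9 clusters, and passed in 3. In CD8 cluster 0 it measured 33.4, 35.4 and 31.4 CPM in anti-ACBP mice and 23.2, 16.1 and 19.2 CPM in isotype mice, a log2 fold change of 0.71 ± 0.14 (edgeR adjusted p = 0.0421). In conventional CD4 cluster 1 it measured 40.4, 40.9 and 42.1 CPM in anti-ACBP mice and 25.8, 18.5 and 20.7 CPM in isotype mice, a change of 0.91 ± 0.14 (edgeR adjusted p = 0.0392). The regulatory cluster 2 gave 0.73 ± 0.12 (edgeR adjusted p = 0.0122). The other 6 clusters did not pass, with values from 0.42 ± 0.18 in cluster 3 to 1.10 ± 0.67 in cluster 8, where 1 anti-ACBP library stands against 3 isotype libraries. In 6 of the 8 clusters with all mice, all but 3 and 7, the groups did not overlap. The share of all tested genes whose groups did not overlap was 22.1, 19.6, 26.9, 17.4, 17.9, 14.7, 19.9 and 14.2% in clusters 0 to 7. Of 90 pairs of gene and cluster 81 could be tested, and the 3 that passed were these Dnajb9 values. The share of all tested genes that rose was 0.722, 0.115, 2.33, 0.0415, 0.326, 0.161, 1.94, 0.242 and 0.313% in clusters 0 to 8. Without anti-ACBP mouse 1, 2 or 3 there were 1, 0 and 1 such pairs, and without isotype mouse 1 there were 9.

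**Figure D3:**
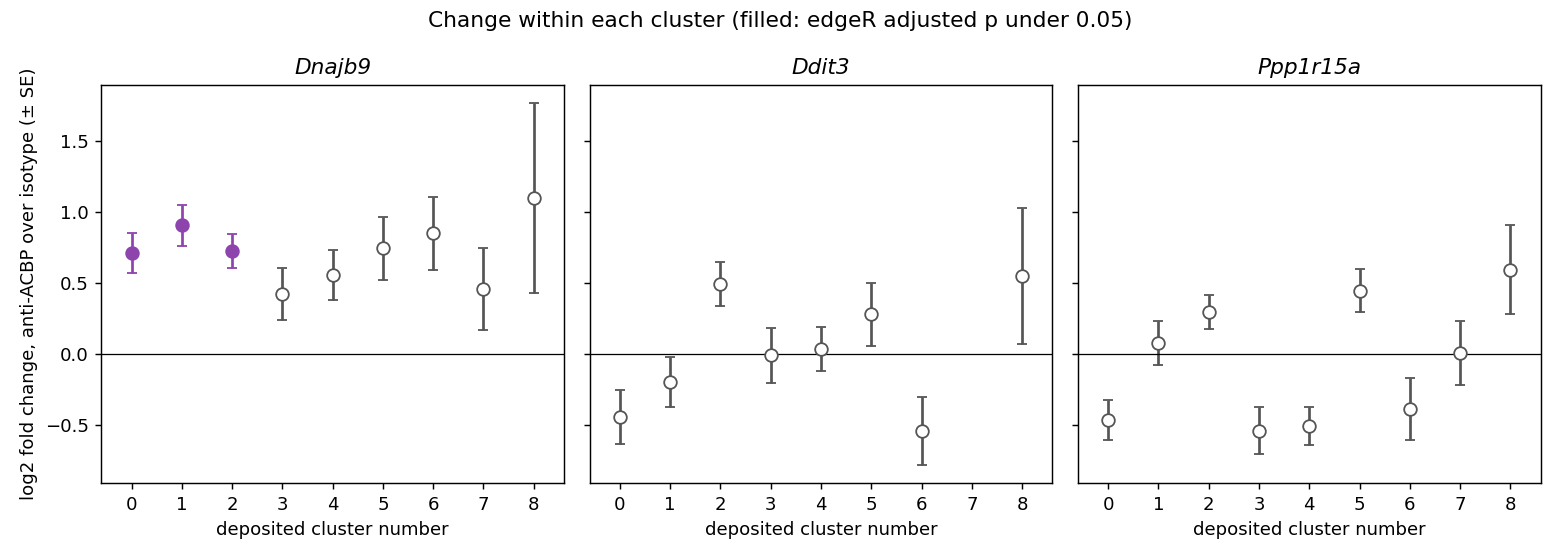
Log2 fold change of Dnajb9, Ddit3 and Ppp1r15a with anti-ACBP over isotype (vertical axis, bars are SE) in each deposited cluster (horizontal axis), with filled points where the edgeR adjusted p is under 0.05. Dnajb9 lies above 0 in 9 of 9 clusters, whereas Ddit3, untested in cluster 7, and Ppp1r15a lie on both sides.

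The other members of the ER arm did not pass in any class. Hspa5 came nearest, in conventional CD4 T cells, with 616, 613 and 611 CPM in anti-ACBP mice against 517, 427 and 462 CPM in isotype mice. The anti-ACBP mice lay close together and above every isotype mouse, and the log2 fold change was 0.40 ± 0.09 (edgeR adjusted p = 0.0911; DESeq2 adjusted p = 0.0223). It was 0.09 ± 0.07 in CD8 and 0.09 ± 0.08 in regulatory T cells, at adjusted p of 0.501 and 0.558. Herpud1 in conventional CD4 T cells was 72.4, 75.0 and 79.0 CPM in anti-ACBP mice and 66.6, 44.9 and 54.2 CPM in isotype mice, a change of 0.46 ± 0.14 (edgeR adjusted p = 0.177). Without isotype mouse 1 both passed there, at 0.50 (adjusted p = 0.0339) for Hspa5 and 0.65 (adjusted p = 0.0327) for Herpud1, and Herpud1 also passed in CD8 T cells (0.41, adjusted p = 0.0416). Herpud1 had a positive change in 9 of 9 clusters and Sdf2l1 in 0 of 9, but neither passed in any of them.

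Sdf2l1 was the ER gene with lower values. In regulatory T cells it measured 56.0, 62.1 and 46.4 CPM in anti-ACBP mice and 83.6, 67.2 and 66.5 CPM in isotype mice, groups that did not overlap, with a log2 fold change of -0.42 ± 0.13 (edgeR adjusted p = 0.106). In G1 cells alone it was -0.16 ± 0.13 (adjusted p = 0.572), and in the cycling cluster 4 its change was -0.02 ± 0.08. Xbp1 in regulatory T cells measured 136, 153 and 158 CPM in anti-ACBP mice and 122, 134 and 122 CPM in isotype mice, also without overlap, a change of 0.22 ± 0.08 (edgeR adjusted p = 0.161). In the other classes Xbp1 was within 0.05 of 0 on the log2 scale. UMI counts at the gene do not separate its spliced form.

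In the integrated stress response arm, the changes of Ddit3 and Ppp1r15a in regulatory T cells differed from those in CD8 T cells. Ddit3 in regulatory T cells measured 42.6, 32.1 and 38.3 CPM in anti-ACBP mice and 30.6, 24.2 and 23.7 CPM in isotype mice, with every anti-ACBP mouse above every isotype mouse. In CD8 T cells it measured 27.9, 19.2 and 22.6 CPM in anti-ACBP mice and 33.4, 24.4 and 24.1 CPM in isotype mice, and the groups overlapped. Neither change passed, at 0.49 ± 0.15 in regulatory (edgeR adjusted p = 0.104) and -0.26 ± 0.18 in CD8 T cells (edgeR adjusted p = 0.511). The change in regulatory minus that in CD8 T cells was 0.79 ± 0.12 (SE, edgeR with the mouse as a block, adjusted p = 0.0177).

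Ppp1r15a showed the same contrast. Its level in regulatory T cells was 122.7, 159 and 179 CPM in anti-ACBP mice against 134, 110.5 and 125 CPM in isotype mice. Its level in CD8 T cells was 35.6, 40.3 and 51.8 CPM in anti-ACBP mice against 58.6, 57.2 and 47.9 CPM in isotype mice. Anti-ACBP mouse 1 lay below isotype mice 1 and 3 in the regulatory class and anti-ACBP mouse 3 above isotype mouse 3 in the CD8 class, so both pairs of groups overlapped. The changes of 0.28 ± 0.12 and -0.39 ± 0.14 did not pass (edgeR adjusted p of 0.227 and 0.187), and their difference was 0.71 ± 0.11 (edgeR adjusted p = 0.0183). These were the 2 of 10 genes called in that comparison, in which 0.477% of 12169 genes were called. Conventional CD4 minus CD8 gave 0.56 ± 0.10 for Ppp1r15a (adjusted p = 0.0999), and in that comparison and in regulatory minus conventional CD4 none of the 10 genes passed, at 0.0084% and 0.202% of all genes.

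Both differences between regulatory and CD8 T cells kept their sign in every alternative run, but leaving out any 1 anti-ACBP mouse ended the calls, at adjusted p of 0.0789 to 0.0925 for Ddit3 and 0.0834 to 0.107 for Ppp1r15a, as did leaving out isotype mouse 3 for Ddit3 (0.0723). Keeping only cells that matched their lineage also ended the call of Ddit3 (0.75 ± 0.17, adjusted p = 0.104). In G1 cells alone, an alternative chosen after the data were seen, the difference was 0.68 ± 0.11 for Ppp1r15a (adjusted p = 0.00519) and 0.64 ± 0.14 for Ddit3 (adjusted p = 0.0582). Among clusters, Ppp1r15a had values of -0.46 ± 0.14, -0.54 ± 0.17 and -0.39 ± 0.22 in CD8 clusters 0, 3 and 6, and 0.30 ± 0.12 in regulatory cluster 2, none of which passed. RefSeq places Ddit3 (chr10:127290793-127296291, GRCm38.p6) over parts of Mbd6 and Mars1 and Ppp1r15a (chr7:45522917-45526268) over part of Tulp2. Hspa5 (chr2:34772090-34776529) likewise overlaps Rabepk. How reads shared by such genes were counted is not known here.

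**Figure D4:**
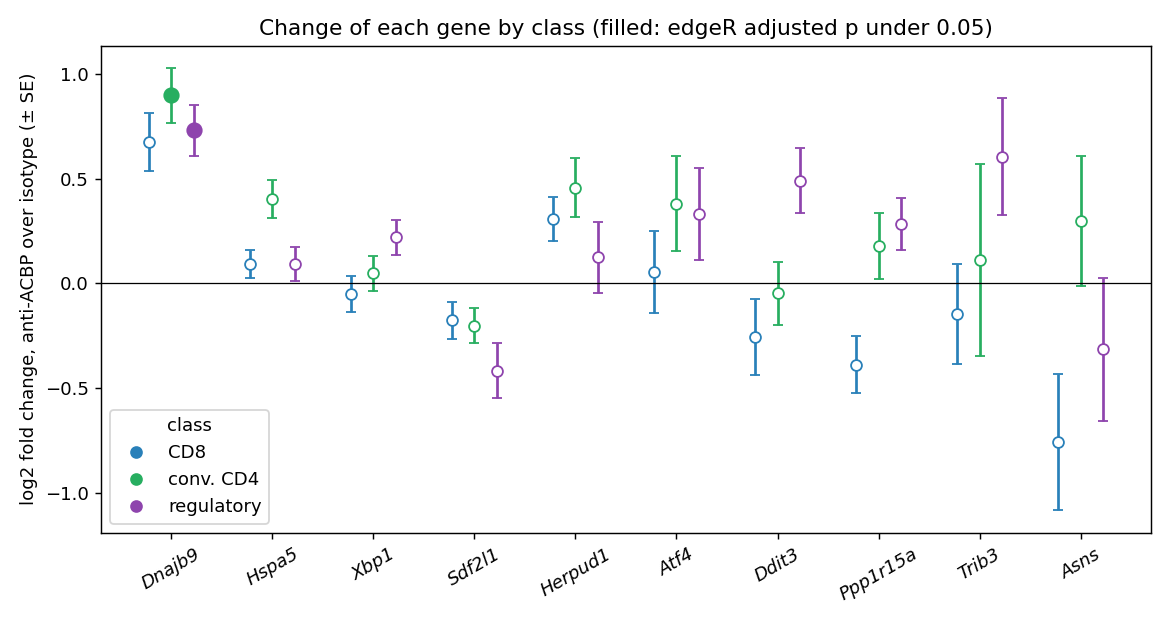
Log2 fold change with anti-ACBP over isotype (vertical axis, bars are SE) of the 10 genes in CD8, conventional CD4 and regulatory T cells, with filled points where the edgeR adjusted p is under 0.05. The filled points are Dnajb9 in conventional CD4 (0.90) and regulatory T cells (0.73), and Ddit3 and Ppp1r15a show values on opposite sides of 0 in CD8 and regulatory T cells.

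Atf4 varied more among isotype mice than between the groups. In conventional CD4 T cells it measured 124, 112 and 117 CPM in anti-ACBP mice and 119.6, 64.3 and 88.1 CPM in isotype mice, a log2 fold change of 0.38 ± 0.23 (edgeR adjusted p = 0.503). Isotype mouse 2 in CD8 and regulatory T cells was again the lowest of the 6, at 67.6 and 71.3 CPM. Trib3 in regulatory T cells was 4.28, 4.88 and 4.07 CPM in anti-ACBP mice and 3.28, 2.55 and 2.54 CPM in isotype mice, 10 to 23 UMIs and 14 to 53 UMIs per library, with a change of 0.60 ± 0.28 (edgeR adjusted p = 0.246). With lineage-matching cells that change was -0.02. Asns in CD8 T cells measured 6.42, 9.74 and 6.78 CPM in anti-ACBP mice and 8.89, 19.7 and 9.94 CPM in isotype mice, a change of -0.76 ± 0.33 (edgeR adjusted p = 0.289) to which isotype mouse 2 contributed the highest value.

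The wider pathway lists held few calls. None of 20 ER chaperones and folding enzymes passed in any class, and their medians were -0.08 in CD8, -0.02 in conventional CD4 and -0.18 in the regulatory class, where the medians of all tested genes were 0.00, -0.01 and -0.01. The values of 4 of the 20 were above 0 in CD8, 9 in conventional CD4 and 3 in the regulatory class. None of 16 genes of ER-associated degradation, 24 of ER translocation and secretion and 12 of the eIF2alpha kinases, phosphatases and exchange factor passed in a class. Values above 0 numbered 13, 14 and 12 of the 16 in CD8, conventional CD4 and regulatory T cells, at medians of 0.09, 0.09 and 0.06. In the same order they numbered 8, 12 and 8 of the 24, and 6, 10 and 6 of the 12. Among ER stress sensors and regulators 9, 7 and 8 of 10 were above 0, at medians of 0.13, 0.05 and 0.21. Of 10 ER stress sensors and regulators, Creb3, a membrane-bound transcription factor of the ER and Golgi, rose in CD8 T cells, at 31.8 ± 1.44 CPM in anti-ACBP and 23.1 ± 1.26 CPM in isotype mice (SD, n = 3 each, log2 fold change 0.44 ± 0.08, edgeR adjusted p = 0.0463). Over all T cells together Eif2ak3, which encodes PERK, rose as well, at 47.7 ± 0.995 CPM in anti-ACBP and 32.3 ± 4.70 CPM in isotype mice (0.56 ± 0.11, edgeR adjusted p = 0.0454), as did Syvn1, the ubiquitin ligase HRD1 (0.44 ± 0.09, edgeR adjusted p = 0.0498). Neither Eif2ak3 nor Syvn1 passed in any single class, and the sum over all T cells mixes classes in proportions that differed between mice.

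Targets of ATF4 and CHOP went in both directions. Of 13 tested transcription and signalling targets, Atf3, a stress-induced transcription factor, rose in all 3 classes, by 1.09 ± 0.18 in CD8, 1.29 ± 0.15 in conventional CD4 and 2.11 ± 0.28 in the regulatory class on the log2 scale (edgeR adjusted p of 0.0429, 0.0155 and 0.00658), and in regulatory T cells averaged 19.3 ± 2.95 CPM in anti-ACBP and 4.53 ± 2.11 CPM in isotype mice (SD, n = 3 each). Ddit4, an inhibitor of mTORC1 that other stresses also induce, fell by 1.25, 1.13 and 1.19 in the same order (edgeR adjusted p of 0.0109, 0.00214 and 0.000494). Eif4ebp1, a repressor of cap-dependent translation, fell by 0.58 in CD8 and 0.66 in regulatory T cells (edgeR adjusted p of 0.0497 and 0.0228). Among amino acid and one-carbon synthesis genes, 0 of 10 had a positive change in CD8 T cells, at a median of -0.29, and none passed. In conventional CD4 T cells 3 of 9 were positive, at a median of -0.10, and none passed. Regulatory T cells had 1 of 9 positive, at a median of -0.30. That 1 was Got1, an aspartate aminotransferase, which rose (0.48 ± 0.09, edgeR adjusted p = 0.0245). Slc7a5, a chain of the leucine transporter, rose in conventional CD4 T cells (0.80 ± 0.13, edgeR adjusted p = 0.0366), and none of 12 aminoacyl-tRNA synthetases passed, at medians of -0.16 in CD8, 0.07 in conventional CD4 and -0.08 in the regulatory class. None of 12 cytosolic heat shock genes passed, at medians of -0.28, -0.13 and -0.44 in the same classes. With each of the 6 mice left out in turn, the changes of Atf3 in regulatory T cells and of Ddit4 in both CD4+ classes and over all T cells together passed 6 of 6 times. The other named calls of the wider lists were lost without at least 1 mouse, with the same sign. Creb3 in CD8 and Slc7a5 in conventional CD4 T cells, for example, passed in 1 of 6 such fits, and Eif2ak3 over all T cells in 2 of 6.

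Immediate early genes, which answer receptor signals and tissue handling within minutes, moved beside these genes. Of 14 such genes 3 rose in CD8 T cells, 2 rose in conventional CD4 T cells, and 4 rose and 1 fell in regulatory T cells, which was Junb (-0.63 ± 0.09, edgeR adjusted p = 0.0116). Of all tested genes 0.564%, 0.247% and 2.04% rose in the same order of classes, and 1.3% fell in regulatory T cells. Fosb was 49.9 ± 5.74 CPM in anti-ACBP and 14.7 ± 2.80 CPM in isotype CD8 T cells (SD, n = 3 each). Atf3 is on this list and on that of ATF4 targets. Their part in the changes of the 10 genes was not tested.

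**Figure D5:**
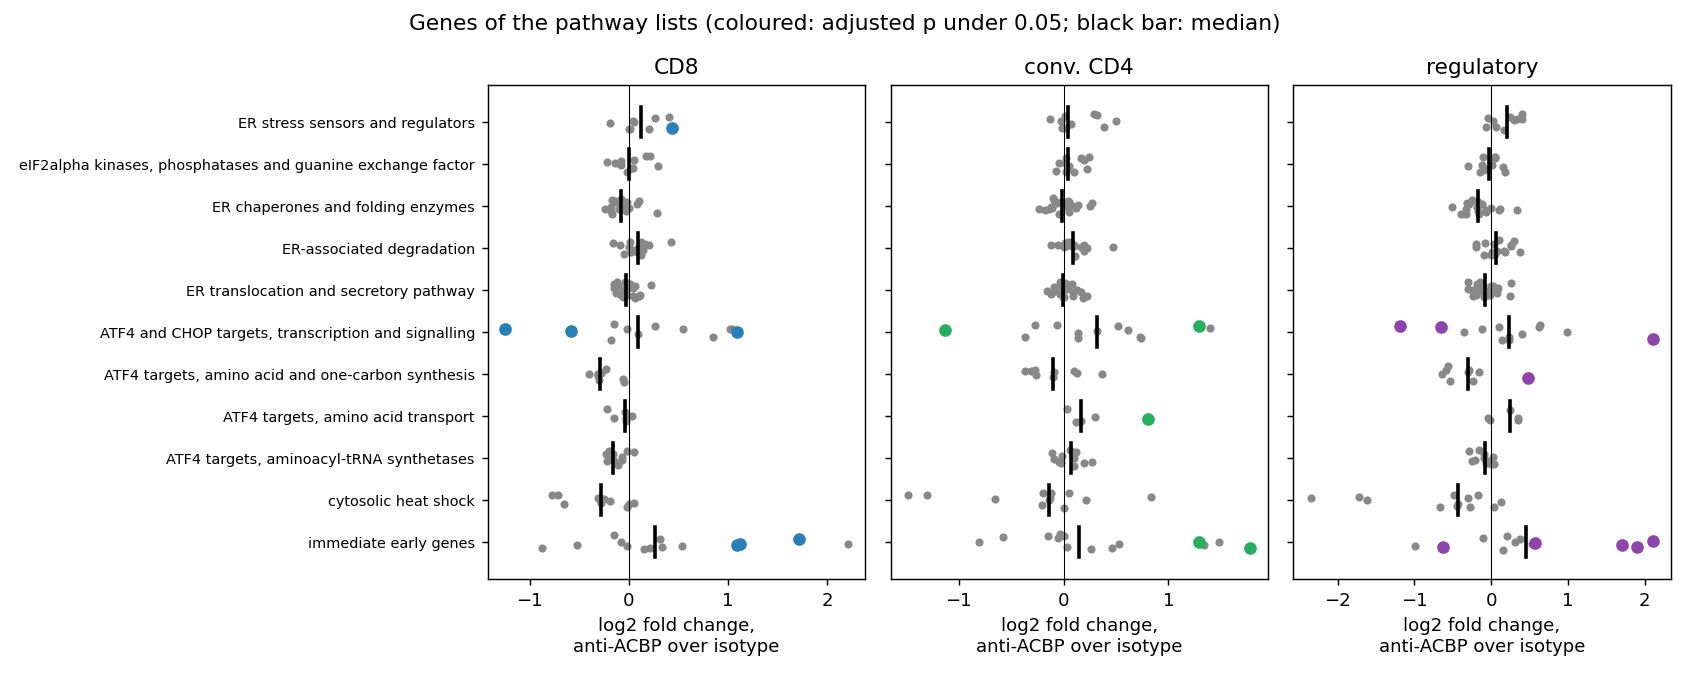
Log2 fold change with anti-ACBP over isotype (horizontal axis) of every tested gene of 11 pathway lists (rows) in 3 classes, with coloured points where the edgeR adjusted p is under 0.05 and a black bar at each list's median. The chaperone, degradation and translocation lists hold no coloured point, with chaperone medians of -0.08, -0.02 and -0.18 in CD8, conventional CD4 and regulatory T cells.

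None of the tested markers of cell types other than T cells passed in any class. Of 4 regulatory T cell markers, 1 rose in conventional CD4 T cells, where 0.247% of all tested genes rose. In the regulatory class 1 of the same 4 fell, where 1.3% of all tested genes fell. The summed level of 10 plasma and B cell markers in CD8 T cells was 10.7 to 12.6 CPM in anti-ACBP and 11.6 to 15.8 CPM in isotype mice, and in regulatory T cells 151 to 182 CPM and 148 to 180 CPM. Of the defining markers, Jchain of plasma cells was at most 0.443 CPM, Lyz2 of macrophages at most 0.407 CPM and Sparc of fibroblasts at most 0.213 CPM in any mouse and class. Of the list sums, 8 dendritic cell markers in CD8 T cells stood at 57.4 to 86.9 CPM in anti-ACBP and 25.6 to 57.3 CPM in isotype mice, and 8 fibroblast and tumour cell markers at 10.7 to 11.001 CPM and 11.97 to 13.4 CPM, both without overlap. Of these 8 fibroblast and tumour cell markers, 7 were under 1 CPM in CD8 T cells of every mouse. The sum of 5 endothelial markers in conventional CD4 T cells did not overlap either, at 15.9 to 23.1 CPM in anti-ACBP and 24.2 to 27.8 CPM in isotype mice. Fibroblast and tumour cell markers summed higher in that class, to 79.9 to 155 CPM and 120 to 134 CPM, again with 7 of 8 under 1 CPM. Dendritic cell markers in regulatory T cells summed to 580 to 640 CPM in anti-ACBP and 524 to 746 CPM in isotype mice. Both of these sums overlapped. Summed macrophage and monocyte markers in regulatory T cells were 22.6 to 34.96 CPM in anti-ACBP and 18.5 to 23.9 CPM in isotype mice, with 8 of these 10 genes under 1 CPM in every mouse. Summed neutrophil markers were at most 0.536 CPM in any class. Their part in the results was not tested. H2-Ab1, an MHC class II gene of antigen-presenting cells, was 20.2 to 36.1 CPM in regulatory T cells of anti-ACBP mice and 14.4 to 26.5 CPM in those of isotype mice.

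Across 52 sums of library and cluster, which share mice and depth, the genes most like Dnajb9 among 7445 were Tob1, an inhibitor of proliferation (Pearson r = 0.89), Mcl1, a survival factor of the BCL2 family (0.86), and Epc1 (0.83). For Ppp1r15a they were Zfp36, Zfp36l1 and Csrnp1 (0.88, 0.87 and 0.85), and for Herpud1 Ier5, Gadd45b and Sfr1 (0.88, 0.87 and 0.84). For Sdf2l1 they were Tkt, Cox5a and Fkbp2 (0.87 each), for Atf4 Sertad1, Brd2 and Klf4 (0.83, 0.82 and 0.76), and for Hspa5 Nip7, Selenos and Polr1c (0.81, 0.76 and 0.75). Xbp1 was most like 2310010J17Rik, Cflar and Samsn1 (0.79, 0.77 and 0.75), and Ddit3 like 2410006H16Rik, Pdcd2 and Helz2 (0.75, 0.69 and 0.68). Among the 8 members that averaged 10 CPM or more, Herpud1 and Atf4 (0.70) and Xbp1 and Ppp1r15a (0.69) were closest. Sdf2l1 correlated negatively with each of the other 7, down to -0.57 with Dnajb9. These values describe the 52 sums and carry no test.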

How the data were processed

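Single-cell 5' expression libraries of 6 mice were analysed, with their T cell receptor libraries used only to count chains per cell. Whole UMI counts for each gene and barcode were read from the deposited matrices, in which the authors had applied no scaling, judged from the values. The submitters' processing notes name Cell Ranger 7.0.0, Seurat and mm10, with no role for any of them. A deposited table lists 30749 of 69249 barcodes with its cluster and phase. It also has a column headed DF1, which no source used here explains. In each of these cells the matrix sum equals that table's total.

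Cells with no class numbered 253. Cells with more Cd8a plus Cd8b1 than Cd4 UMIs and no Foxp3 UMI in clusters 4, 5 and 8 joined the CD8 class, those with more Cd4 UMIs the conventional CD4 or, with a Foxp3 UMI, the regulatory class. No further cells were left out as possible doublets, and whether the authors had removed any is not known here. An alternative leaves out the 1028 cells with 2 or more TRB chains. Counts were then added up for every mouse and class or cluster, leaving out libraries with under 20 cells. Genes were tested with edgeR 4.0.16 (TMM, filterByExpr, robust quasi-likelihood F test, two-sided) and Benjamini-Hochberg adjustment at 0.05 over all tested genes, without 651 receptor and immunoglobulin segments. The genes tested numbered 11695 for the CD8 class, 10932 for conventional CD4 and 10416 for regulatory T cells. The scripts were tested on simulated data. Changes in 2 classes were compared through the interaction term of a fit blocked on mouse. Alternatives were DESeq2 1.42.0, other filters, left-out mice, subsets of cells and cells thinned to 2000 UMIs, for which 1030 shallower cells were left out. The classes and clusters come from the same 6 mice and share their controls.

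The 10 genes, the lists, the tests and the rule for other named genes (up to 4 per list among those that passed) were chosen with earlier results of these data known. Counting error for shares and sums is limited by the UMIs given.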

Additional observations from a re-analysis of the deposited data

Results flagged for a closer look

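For 2 genes the change with anti-ACBP differed between regulatory and CD8 T cells by the test of the difference itself. For Ddit3 the log2 fold change in regulatory T cells minus that in CD8 T cells was 0.79 (SE 0.12, edgeR adjusted p = 0.0177), and for Ppp1r15a it was 0.71 (SE 0.11, edgeR adjusted p = 0.0183). The regulatory class had a higher share of G1 cells and a higher summed Cd8a and Cd8b1 level in anti-ACBP than in isotype mice, as given above. With lineage-matching cells the differences were 0.75 for Ddit3 (edgeR adjusted p = 0.104) and 0.73 for Ppp1r15a (edgeR adjusted p = 0.0152). The part of phase and of Cd8a and Cd8b1 RNA beyond these values was not tested.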

How the results depend on the processing

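Other settings moved the number of the 10 genes called as follows. In CD8 T cells (0 genes) there was 1 with DESeq2, 1 with no low-count filter and 1 with cells thinned to 2000 UMIs, each time Dnajb9, and 0 to 2 when 1 mouse was left out. In conventional CD4 T cells (1 gene) there were 2 with DESeq2 and 2 with no filter, 0 with lineage-matching cells, 0 with the replicate block and 0 to 3 with 1 mouse left out. In regulatory T cells (1 gene) there were 3 with no filter, 2 without cells whose DF1 is FALSE, 0 in G1 cells and 0 to 1 with 1 mouse left out. Over all T cells (1 gene) the replicate block gave 0, and leaving out 1 mouse 0 to 2. Of the pairs of gene and cluster (3), 14 passed with no filter, 5 without DF1 FALSE cells and 0 to 9 with 1 mouse left out. The share of all tested genes called per cluster in those fits is not given here. Of the differences between classes (2), 5 passed with no filter, 1 with lineage-matching cells and 0 to 3 with 1 mouse left out. Of the shares, 7 instead of 11 did not overlap without thinning, and 13 to 15 with 1 mouse left out. Over all genes, the 119 calls in CD8, 36 in conventional CD4 and 348 in the regulatory class became 476, 218 and 485 with DESeq2, 351, 295 and 811 with no filter, and 0 to 744, 2 to 139 and 44 to 772 with 1 mouse left out. They became 47 without DF1 FALSE cells in CD8, 8 with the replicate block, 4 with lineage-matching cells and 71 with thinned cells in conventional CD4, and 213 with lineage-matching and 159 with G1 cells in regulatory T cells. The 297 calls over all T cells became 932 with DESeq2, 477 with no filter, 178 without DF1 FALSE cells, 174 with thinned cells, 37 with the replicate block and 1 to 404 with 1 mouse left out. In the replicate block the Dnajb9 change in conventional CD4 T cells was 0.90 (adjusted p = 0.0729). The deviations of same-numbered mice from their group means correlated at 0.22, 0.03 and -0.16 in CD8 T cells, so the numbers were not taken as pairs.

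Of 777 single log2 values recomputed, 719 kept direction and call and 23 changed sign, all for changes that had not passed. With 1 mouse left out, the ranges of those that changed sign were -0.13 to 0.29 for Atf4 in CD8, -0.019 to 0.10 for Xbp1, -0.17 to 0.094 for Ddit3 and -0.29 to 0.45 for Trib3 in conventional CD4, and -0.042 to 0.33 for Herpud1 and -0.62 to 0.0083 for Asns in regulatory T cells. Differences between classes that did so were Sdf2l1 (-0.12 to 0.047) and Trib3 (-0.073 to 0.63) for conventional CD4 minus CD8, and Dnajb9 (-0.10 to 0.13), Hspa5 (-0.023 to 0.063) and Asns (-0.27 to 0.88) for regulatory minus CD8. Trib3 was -0.0024 in conventional CD4 without DF1 FALSE cells and -0.024 in regulatory T cells with lineage-matching cells, which also gave 0.013 for Dnajb9 in regulatory minus conventional CD4. In G1 cells Dnajb9 was -0.13 for regulatory minus CD8 and Atf4 0.072 for regulatory minus conventional CD4. The causes were not tested. Depth limits Trib3 and Asns most.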
